A study of Zea mays with 6 samples.

Results

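Auxin is the plant hormone that sets up new organs on inflorescences and takes part in the growth of the stamen and its anther. Tryptophan aminotransferases begin its main route of synthesis, PIN carriers move it out of cells from one side of the plasma membrane, PINOID-type kinases phosphorylate PIN carriers and so affect where they sit, and ABCB transporters carry it out of cells without the same one-sided placement. In maize (Zea mays), mutants in several of these genes have barren tassels or short stalks. Described here are 5 such genes in developing anthers: vt2 (vanishing tassel2, Zm00001d008700), a tryptophan aminotransferase of auxin synthesis; pin1a (Zm00001d044812) and pin1b (Zm00001d018024), auxin efflux carriers; bif2 (barren inflorescence2, Zm00001d031068), a PINOID-type kinase; and br2 (brachytic2, Zm00001d031871), an ABCB transporter known from dwarf plants with short stalks. They were taken by a list of identifiers and are 5 of 46430 genes in the count table and 5 of the 23477 genes with enough counts to be tested.

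The zmrpn1 group was made of 3 RNA-seq libraries of anthers at stages S3 to S5 from maize with a knockout of ZmRPN1, whose labels name Mutator (a maize transposable element family) and the genotype code aa, with the allele given as zmrpn1-1. The WT group was made of 3 libraries of anthers at the same stages from plants with the genotype code AA. The series title ties ZmRPN1 to pollen number, and the comparison asks which transcripts differ between mutant and wild-type anthers. Only this allele is named. Nothing in the labels tells if replicates were separate plants or pools, or if WT plants were sibs of the mutants. The p-values therefore describe the spread of these libraries, which may be technical.

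Library totals ran from 18724037 to 26000578 counts in zmrpn1 and from 16203290 to 29515176 counts in WT. The names of the 5 genes came with their identifiers, since the count table holds identifiers only. A reference gene table of another assembly lists pin1a, bif2 and br2 by name without these identifiers. The rows given for bif2 and br2 lie between the same pair of microRNA precursors, both on the chromosome of the named genes in that table. Of the 2 precursors around the row given for pin1a, 1 is on its chromosome. This check reaches no further than the chromosome and cannot tell bif2 from br2. For vt2 and pin1b that table gave no such check. No identifier of ZmRPN1 or of a nuclear anther marker could be matched, so neither the genotype nor the tissue label was checked. Of 9 plastid photosynthesis genes that mark green tissue, 7 to 9 were at 0 in each zmrpn1 library and 8 or 9 in each WT library, with a summed level of at most 0.107 CPM in zmrpn1 and 0.185 CPM in WT. Only 3 of these 9 genes had a count in any library. RNA selection and the handling of multiply mapped reads are not given, so these rows cannot show whether green tissue was absent.

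Both carrier genes differed between genotypes in the main fit, in opposite directions and by small amounts. In 14 alternative fits the scaling, filter or test was changed, a replicate block was added or 1 library was left out. The call of pin1a was lost in 2 of these fits and that of pin1b in 4. The transcript of pin1a was lower in zmrpn1 anthers, at 82.0% of its WT level in the fitted model, and that of pin1b was higher, at 116%. The synthesis gene vt2, the kinase bif2 and the ABCB transporter br2 did not pass the test. Of the 5 genes 1 was called higher and 1 lower in zmrpn1 (edgeR quasi-likelihood test, p adjusted over all tested genes by Benjamini-Hochberg and called under 0.05), where 6.63% of all tested genes were called higher, 5.82% lower and 12.4% in either direction. With TMM scaling groups did not overlap for the same 2 genes, against 27.0% of all tested genes (13.8% with zmrpn1 higher and 13.2% with zmrpn1 lower). The median log2 change of the 5 genes was -0.05, against 0.0012 over all tested genes, and the median size of the change regardless of sign was 0.22, against 0.10. With only 5 genes these shares are a description.

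**Figure D1:**
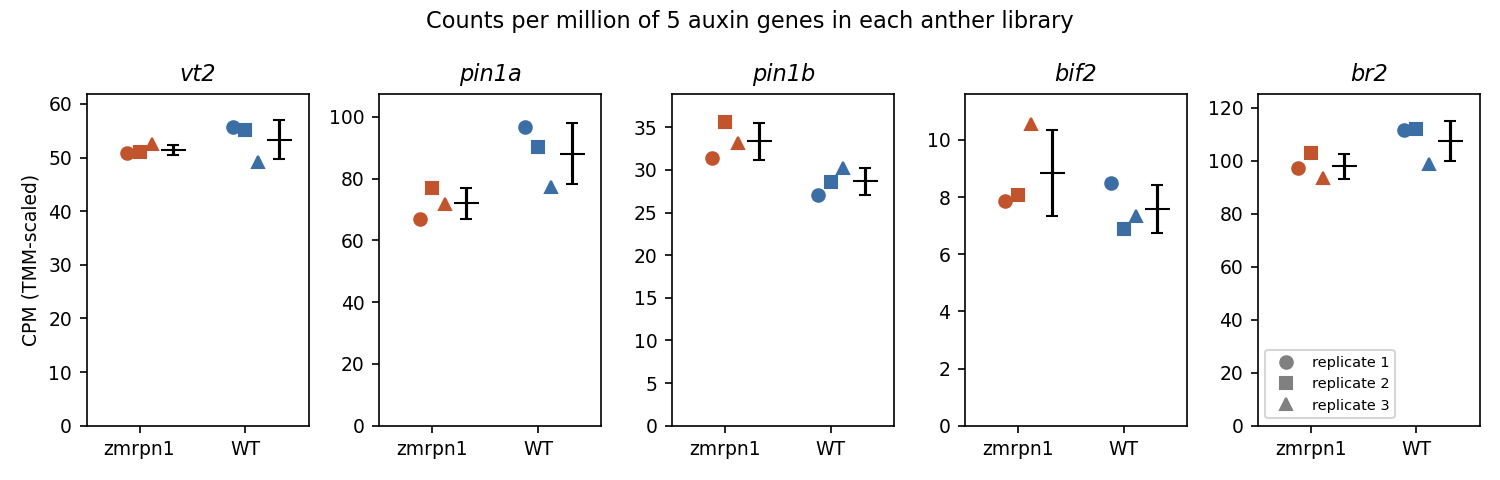
Counts scaled to library size (CPM, with TMM factors) of vt2, pin1a, pin1b, bif2 and br2, with zmrpn1 libraries in orange left of WT libraries in blue, marker shapes giving the replicate number, and black bars the mean and SD of 3 libraries. All zmrpn1 points lie below all WT points for pin1a, where scaling by library size only makes the groups overlap, and above them for pin1b, while the groups overlap for vt2, bif2 and br2.

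The carrier pin1a had 67.1, 77.1 and 71.7 CPM (counts scaled to library size, with TMM factors) in zmrpn1 replicates 1, 2 and 3, against 96.9, 90.2 and 77.3 CPM in WT replicates 1, 2 and 3. The highest zmrpn1 library, replicate 2, lay barely under the lowest WT library, replicate 3, and with scaling by library size only these values were 77.5 and 77.3 CPM, so that the groups overlapped. The means were 72.0 ± 5.02 CPM in zmrpn1 and 88.1 ± 9.97 CPM in WT (SD, n = 3 each). The log2 change was -0.29 (standard error 0.07), with a 95% interval of -0.42 to -0.15 and an edgeR adjusted p of 0.00288. The call depended on single libraries: without zmrpn1 replicate 3 the adjusted p was 0.0522, with a log2 change of -0.28 that was close to that of all libraries, and without WT replicate 1, the highest library, it was 0.0542 with a log2 change of -0.21. These are bulk libraries of anthers, in which fewer cells of a type and less RNA per cell cannot be told apart.

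The carrier pin1b had 31.4, 35.7 and 33.1 CPM in zmrpn1 replicates 1, 2 and 3, against 27.1, 28.6 and 30.3 CPM in WT replicates 1, 2 and 3. Every zmrpn1 library was above every WT library, again by a narrow margin between zmrpn1 replicate 1 and WT replicate 3. The means were 33.4 ± 2.16 CPM in zmrpn1 and 28.7 ± 1.58 CPM in WT (SD, n = 3 each), and the log2 change was 0.22 (standard error 0.07), with a 95% interval of 0.07 to 0.36 and an edgeR adjusted p of 0.038. This rise was close to the threshold. DESeq2 gave nearly the same log2 change of 0.21 with an adjusted p of 0.0936, and the adjusted p with edgeR was 0.205 without zmrpn1 replicate 2 (log2 change 0.17), 0.168 without WT replicate 1 (0.18) and 0.103 without WT replicate 2 (0.21).

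The balance between both carriers was compared within each library, where scaling between libraries plays no part. For every 100 counts of pin1a there were 46.7, 46.2 and 46.2 counts of pin1b in zmrpn1 replicates 1, 2 and 3, against 28.0, 31.7 and 39.2 in WT replicates 1, 2 and 3. The zmrpn1 libraries were nearly alike, closer together than their counting intervals below are wide. All were above the WT libraries, which were spread widely. With TMM scaling every zmrpn1 library was below every WT library for pin1a and above every one for pin1b. The separation of the ratio follows from these levels and is no further evidence. The means were 46.4 ± 0.316 in zmrpn1 and 33.0 ± 5.69 in WT (SD, n = 3 each). On the log2 scale the difference was 0.51 (exact two-sided permutation p = 0.1, and 0.15 adjusted over 3 ratios). No smaller p is possible with 3 libraries on each side. Counting error alone gave exact 95% intervals of 42.3 to 51.6, 42.3 to 50.4 and 42.5 to 50.1 for zmrpn1 replicates 1, 2 and 3, against 25.4 to 30.8, 28.5 to 35.3 and 36.2 to 42.3 for WT replicates 1, 2 and 3. The interval of WT replicate 3 narrowly overlapped those of zmrpn1 replicates 1 and 2, and no other intervals of zmrpn1 and WT libraries overlapped. The ratio depends on transcript length and is therefore compared between groups only. Together the carriers had 105 ± 7.18 CPM in zmrpn1 and 117 ± 8.42 CPM in WT (SD, n = 3 each), with overlapping groups (two-sided exact permutation p = 0.2). How the counting treated reads that match related carrier genes equally well is not stated in the labels, and the separate levels of pin1a and pin1b are uncertain to that extent.

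**Figure D2:**
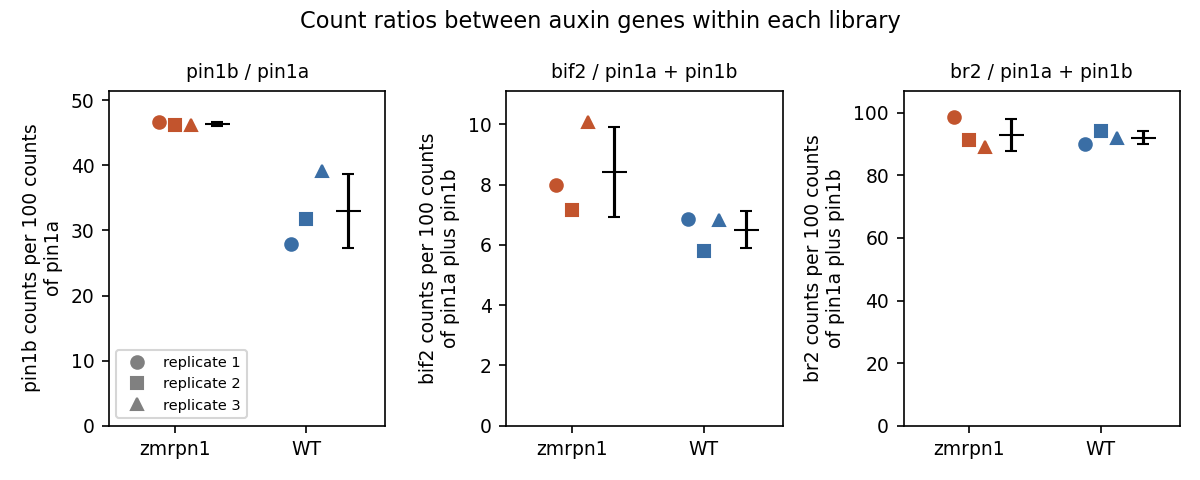
Counts of 1 gene per 100 counts of another within each library, for pin1b over pin1a, bif2 over pin1a plus pin1b and br2 over pin1a plus pin1b, with zmrpn1 libraries in orange left of WT libraries in blue and black bars for the mean and SD of 3 libraries. The pin1b to pin1a ratio is 46.2 to 46.7 in zmrpn1 and 28.0 to 39.2 in WT, and the br2 ratio overlaps between groups.

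The kinase gene bif2 was the gene with the fewest counts. It had 149, 169 and 274 counts in zmrpn1 replicates 1, 2 and 3 and 172, 111 and 217 counts in WT replicates 1, 2 and 3. In CPM these were 7.88, 8.09 and 10.6 in zmrpn1, against 8.51, 6.88 and 7.35 in WT. Only zmrpn1 replicate 3 lay above all WT libraries, and WT replicate 1 lay above the other zmrpn1 libraries. The means were 8.85 ± 1.5 CPM in zmrpn1 and 7.58 ± 0.838 CPM in WT (SD, n = 3 each), and the log2 value was 0.23 (standard error 0.13), with an edgeR adjusted p of 0.273. The 95% interval of the level in zmrpn1 ran from 98.3% to 140% of WT. It includes no change as well as the 116% of pin1b, and these could not be told apart for this gene. The lowest library had a counting error of 9.49%, and without zmrpn1 replicate 3 the log2 value was 0.07.

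Set against the carriers, bif2 gave 8.0, 7.17 and 10.1 counts per 100 counts of pin1a plus pin1b in zmrpn1 replicates 1, 2 and 3, against 6.86, 5.79 and 6.84 in WT replicates 1, 2 and 3. All zmrpn1 libraries were above all WT libraries in this ratio, by a margin between zmrpn1 replicate 2 and WT replicate 1 whose exact 95% intervals overlap, at 6.10 to 8.38 and 5.85 to 8.01. The log2 difference was 0.36 (exact two-sided permutation p = 0.1, again the smallest possible, and 0.15 adjusted over 3 ratios), and it was 0.23 without zmrpn1 replicate 3. It shares its lower pin1a counts with the ratio of pin1b to pin1a and is not independent of it.

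The ABCB transporter gene br2 had 97.1, 103 and 93.4 CPM in zmrpn1 replicates 1, 2 and 3, against 111, 112 and 98.8 CPM in WT replicates 1, 2 and 3. WT replicates 1 and 2 were above every zmrpn1 library, and WT replicate 3 lay among them. The means were 97.8 ± 4.78 CPM in zmrpn1 and 107 ± 7.49 CPM in WT (SD, n = 3 each), with a log2 value of -0.13 and a standard error of 0.06. The unadjusted p was 0.0261 and the edgeR adjusted p was 0.14, so br2 was not called. It passed without WT replicate 3, the WT library closest to the zmrpn1 mean, at a log2 change of -0.19 (edgeR adjusted p = 0.0366). Relative to pin1a plus pin1b, br2 differed little: its counts per 100 of theirs were 98.7, 91.2 and 89.1 in zmrpn1 and 89.9, 94.3 and 91.9 in WT, a log2 difference of 0.01 (two-sided exact permutation p = 0.9).

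The synthesis gene vt2, whose enzyme converts tryptophan on the way to indole acetic acid, had 50.9, 51.0 and 52.5 CPM in zmrpn1 replicates 1, 2 and 3, against 55.7, 55.1 and 49.1 CPM in WT replicates 1, 2 and 3. The zmrpn1 libraries lay between WT replicate 3 below and WT replicates 1 and 2 above. The means were 51.5 ± 0.892 CPM in zmrpn1 and 53.3 ± 3.65 CPM in WT (SD, n = 3 each), with a log2 value of -0.05 (standard error 0.06) and an edgeR adjusted p of 0.733. The 95% interval placed the zmrpn1 level between 88.9% and 106% of WT. For vt2 the log2 value stayed between -0.11 and -0.01 in 14 alternative fits, and none passed the threshold.

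**Figure D3:**
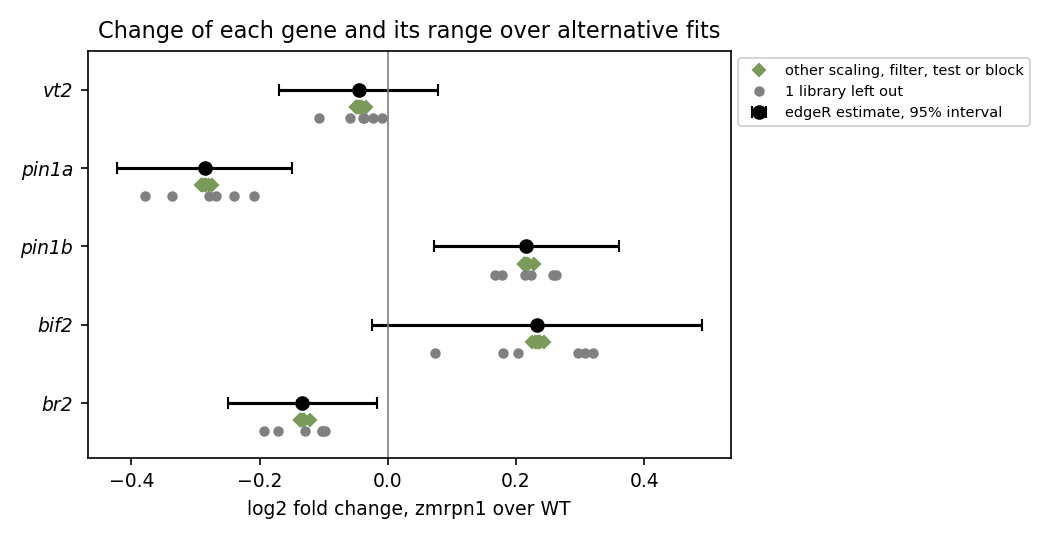
Log2 fold change of zmrpn1 over WT for each gene, with the edgeR estimate and its 95% interval in black, fits with another scaling, filter, test or replicate block as green diamonds and fits with 1 library left out as grey circles. Estimates for pin1a run from -0.38 to -0.21 and for pin1b from 0.17 to 0.26 over 14 alternatives, all on the same side of 0.

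For each of the 5 genes the lowest and the highest estimate among the 14 alternative fits came from leaving out a library, not from another scaling, filter or test. WT replicate 3, the deepest library, was the WT library closest to the zmrpn1 mean for vt2, pin1a, pin1b and br2, that is for 4 of the 5 genes, on the log2 CPM scale. Over all tested genes the same library was the closest in 37.8%, WT replicate 1 in 31.3% and WT replicate 2 in 30.9%. WT replicate 1 held the remaining gene, bif2. The part of depth or of WT replicate 3 in the results was not tested. Leaving this library out gave log2 changes of -0.38 for pin1a and 0.26 for pin1b. Leaving out the WT library closest to the zmrpn1 mean widens such a difference by construction, so these values cannot show that part.

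The changes of pin1a and pin1b were modest among those of the table. Among the 2922 called genes the median size of the log2 change, regardless of sign, was 0.46, and 73.2% had a larger change than pin1a and 88.7% a larger change than pin1b. The fitted spread between replicates, which edgeR moderates over genes, was close to the common value except in bif2. This biological coefficient of variation was 4.57% for vt2, 5.45% for pin1a, 4.95% for pin1b, 4.69% for br2 and 8.01% for bif2, beside a common value of 5.16%. The SD of the CPM over its mean was less even. In zmrpn1 and WT it was 6.98% and 11.3% for pin1a, 6.47% and 5.50% for pin1b, and 16.9% and 11.1% for bif2. For br2 it was 4.89% and 6.97%, and for vt2 1.73% and 6.84%. The fitted value was thus below the observed spread in both groups for pin1a, pin1b, bif2 and br2, and in WT only for vt2. The observed spread includes counting error, which the fitted value leaves out, so these measures are not alike.

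**Figure D4:**
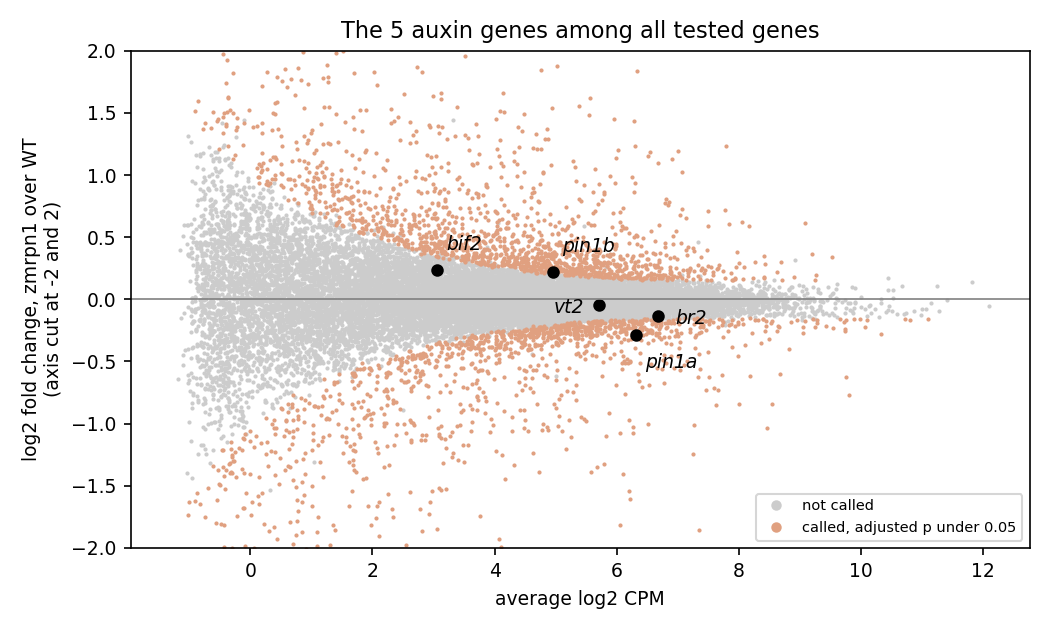
Log2 fold change of zmrpn1 over WT against average log2 CPM for all tested genes, grey where not called and orange where called at an adjusted p under 0.05, with the 5 auxin genes in black. The vertical axis ends at 2 log2 units in each direction and leaves out 183 genes. The point of pin1b lies at the inner edge of the called genes and that of pin1a further out, and vt2, bif2 and br2 lie among those not called.

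In the row order of the count table the share of called neighbours lay around that of all genes, below it for 3 of the 5 genes and above it for 2. Of the 20 tested genes nearest to each, 10 on either side, 1 was called around vt2, 1 around pin1a, 3 around pin1b, 0 around bif2 and 3 around br2, or 0 to 15% of the neighbours, where 12.4% of all tested genes were called. At an adjusted p under 0.05 pin1a had 0 higher and 1 lower neighbour, and pin1b had 2 higher and 1 lower.

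Other genes with the same pattern over the libraries were sought by Pearson correlation of log2 CPM among 20024 genes averaging at least 1 log2 CPM. The most alike gene was Zm00001d033586 for pin1a (r = 0.998), Zm00001d024314 for pin1b (r = 0.9996), Zm00001d042725 for bif2 (r = 0.998), Zm00001d013908 for br2 (r = 0.998) and Zm00001d020595 for vt2 (r = 0.990). These values rest on 6 libraries in 2 groups, which share scaling, and were picked as the highest of many: 28 genes for vt2 and up to 137 for pin1a had r over 0.95. None of these 5 most alike genes was called (edgeR adjusted p of 0.209 to 0.714). The count and reference tables give them no name.

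The rest of the auxin pathway could not be followed in these files. Of 142 symbols listed for further genes of auxin synthesis, transport, response and conjugation, 34 stand in the reference table, and 0 could be tied to a row of the count table. The precursors of miR160, miR167, miR390 and miR393, microRNAs that act on auxin response factors or auxin receptors directly or through small RNAs, had 19 rows, all at 0 counts in all 6 libraries. All 154 precursor rows of the table were at 0, so these rows say nothing about auxin microRNAs in particular.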

How the data were processed

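Anther RNA was DNase-treated and libraries were prepared with NEBNext Ultra II reagents, per the labels' protocols. The build was B73 RefGen_v4, per the submitters' processing notes, which list featureCounts 1.6.4, HISAT2 2.2.1, Trimmomatic 0.39, DESeq2 and StringTie 1.3.6 without settings. Strand use, RNA selection and the handling of multiply mapped reads are not given in the sources used here. Overlapping genes may share counts. The authors deposited whole-number counts per gene without normalization, with no row of unassigned reads. Each column was assigned to its sample by genotype code and replicate number.

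Counts were fitted with edgeR 4.0.16 in R 4.3.3: filterByExpr (minimum count 10), TMM scaling and a robust quasi-likelihood F test over all 23477 kept genes, with Benjamini-Hochberg adjustment. Standard errors were derived from the F statistic (log2 change over its root), and 95% intervals used the moderated degrees of freedom. Log2 CPM used a prior count of 2. Intervals of count ratios were exact binomial and, like counting errors, cover counting error only. Pairs of libraries within a group differed by more than sampling noise (chi-square per degree of freedom 2.01 to 4.88). The fits were tested on simulated data, with planted changes larger than those of the 5 genes and the same spread for all genes. That test does not cover changes of the size seen here. Alternatives were other scalings and filters, DESeq2 1.42.0, limma-voom (limma 3.58.1), a replicate block and each library left out. The genes and lists were chosen with earlier results of these data known. All 5 genes are named, with the 1 most alike gene of each. The labels give no batch. No sequences are printed.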

Additional observations from a re-analysis of the deposited data

How the results depend on the processing

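Other scalings, filters, limma-voom and the replicate block left every one of the 5 genes on its side of the threshold, and DESeq2 changed only pin1b (log2 change 0.21, adjusted p = 0.0936), which left 0 genes called higher. Leaving out 1 library gave log2 changes of -0.38 to -0.21 for pin1a, 0.17 to 0.26 for pin1b, -0.19 to -0.10 for br2, 0.07 to 0.32 for bif2 and -0.11 to -0.01 for vt2, with 0 to 1 of the 5 genes called higher and 0 to 2 called lower. The calls that changed were those named beside each gene. The adjusted p over all alternatives ran from 1.93e-05 to 0.0542 for pin1a, 0.0267 to 0.205 for pin1b, 0.172 to 0.825 for bif2, 0.0366 to 0.447 for br2 and 0.374 to 0.963 for vt2. The log2 difference of the pin1b to pin1a ratio was 0.40 to 0.64 and that of bif2 to both carriers 0.23 to 0.47, and that of br2 to both carriers turned to -0.030 without zmrpn1 replicate 1 and to -0.0028 without WT replicate 1, within -0.030 to 0.044. The cause of these changes was not tested.

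No clear pairing of libraries by replicate number was seen: their deviations from group means had correlations of -0.037, 0.020 and 0.031 for numbers 1, 2 and 3. With the replicate block 1619 genes were called higher and 1386 lower, against 1556 and 1366 without it. The labels do not state a pairing, and with 3 libraries in each group these values cannot settle it. Only replicate 3 correlated best with its own number. The lowest of the 6 libraries held 111 counts of bif2, a counting error of 9.49%, and its biological coefficient of variation was 8.01%; which of these limits its test more was not tested.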
